A study of Homo sapiens with 6 samples.

Results

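Antisense RNA genes (AS genes) are loci that are named after a neighbouring gene and transcribed from the strand opposite to it. In MCF10DCIS cells, 381 AS genes were followed after silencing of WDR5, each beside the sense gene whose symbol it carries. They were the rows of the gene table whose symbol ended in -AS and a digit, left aside the HOX clusters, and they were selected on their raw counts, with at least 10 in each of the 6 libraries. The table held 26334 genes, of which 971 carried such a symbol outside the HOX clusters and 8 inside them. MCF10DCIS.com is a human breast cancer cell line that forms comedo-type ductal carcinoma in situ in mice. The 3 shLuc libraries came from cells carrying an shRNA against luciferase, a sequence that human cells lack, and the 3 shWDR5 libraries from cells carrying shRNAs against WDR5. Both groups were the same line, transduced with the same kind of vector, in which a U6 promoter drives the shRNA and a UbiC promoter drives TagRFP and puromycin resistance, and both were selected with puromycin. The study's methods describe 2 WDR5 shRNAs used as a pool, so that the effect of each could not be told apart. No label says whether the replicates of a group were separate cultures, and the p-values measure the spread between these libraries, which may be technical.

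Antisense transcripts often start from the promoter region of a protein-coding gene and run away from it, while others begin inside or beyond the gene and run through its exons. Some act on the neighbouring gene, many have functions elsewhere in the cell, and most have none assigned. WDR5 is a WD-repeat adaptor protein of the MLL/SET1 complexes, which methylate lysine 4 of histone H3, a mark that is found at active promoters. A promoter shared by a divergent pair is a place where a sense and an antisense gene can lie under the same histone mark, and the comparison asks which AS genes moved with silencing, in which direction, and whether their sense partners moved with them.

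The starts of divergent pairs can lie very close to each other. RefSeq promoter windows (GRCh38.p14, 250 bases before and 50 after the start) were found for 287 of the 381 AS genes. Of all 381 genes, 78 have since been renamed, and 53 now carry the suffix -DT, for divergent transcript. NCBP2-AS2 is now NCBP2AS2. The 381 were taken by symbol, and whether any of them encodes a protein was not examined. In 55 pairs both starts fell in one window, with a median of 118 bases between them. The stretches of 5 such pairs are shown, because they place a gene that changed and its partner on one short piece of DNA. The 5 do not stand for the directions of all such pairs. Of the 55 pairs, 7 had both genes called in the same direction at an adjusted p under 0.05. The pairs of IL10RB-AS1, PCBP1-AS1, NCBP2-AS2 and NDUFA6-AS1 were called in opposite directions, and all but NDUFA6-AS1 are among the 5 shown. Over the 112 tested head-to-head pairs without overlap, both were called in the same direction in 15 and in opposite directions in 5. Over 7983 pairs of neighbouring genes on opposite strands, taken at any distance and not matched in counts, these numbers were 1596 and 1043. No test compared them. IL10RB-AS1 (chr21:33266241-33266386, minus strand), PCBP1-AS1 (chr2:70087356-70087496, minus strand) and NCBP2-AS2 (chr3:196942509-196942693, plus strand) rose while their partners fell. FLVCR1-AS1 (chr1:212858119-212858294, minus strand) fell while FLVCR1 did not pass the test, and KTN1-AS1 (chr14:55580073-55580226, minus strand) fell together with KTN1. Each sequence is read on the strand of the AS gene. Capitals mark the bases between the starts, the 20 lower-case bases before them are the beginning of the sense gene on its opposite strand, and the 20 after them begin the AS gene.
IL10RB-AS1: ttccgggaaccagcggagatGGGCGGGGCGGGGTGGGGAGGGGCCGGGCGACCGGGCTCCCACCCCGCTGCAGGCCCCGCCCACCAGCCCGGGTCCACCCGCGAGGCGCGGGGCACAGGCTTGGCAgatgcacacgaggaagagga
PCBP1-AS1: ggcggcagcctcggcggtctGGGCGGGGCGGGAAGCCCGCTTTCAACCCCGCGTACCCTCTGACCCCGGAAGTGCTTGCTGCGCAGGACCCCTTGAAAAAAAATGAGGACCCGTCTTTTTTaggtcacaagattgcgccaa
NCBP2-AS2: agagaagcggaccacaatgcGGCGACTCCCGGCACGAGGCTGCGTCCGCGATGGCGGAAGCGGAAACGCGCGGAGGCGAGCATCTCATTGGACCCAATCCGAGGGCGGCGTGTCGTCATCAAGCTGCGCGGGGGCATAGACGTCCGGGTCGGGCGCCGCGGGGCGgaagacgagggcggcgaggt
FLVCR1-AS1: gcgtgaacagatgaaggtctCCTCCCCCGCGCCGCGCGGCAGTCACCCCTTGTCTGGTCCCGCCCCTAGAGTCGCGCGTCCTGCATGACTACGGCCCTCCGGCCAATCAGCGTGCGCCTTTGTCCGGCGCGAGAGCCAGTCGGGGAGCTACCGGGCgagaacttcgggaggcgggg
KTN1-AS1: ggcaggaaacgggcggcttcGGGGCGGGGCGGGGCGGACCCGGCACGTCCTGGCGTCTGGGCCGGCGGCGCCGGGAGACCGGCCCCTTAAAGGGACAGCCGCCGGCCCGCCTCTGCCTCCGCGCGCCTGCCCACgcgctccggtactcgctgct

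The bases between the starts numbered 106 for IL10RB-AS1, 101 for PCBP1-AS1, 145 for NCBP2-AS2, 136 for FLVCR1-AS1 and 114 for KTN1-AS1, and G and C made up between 60.4% of them (PCBP1-AS1) and 84.0% (IL10RB-AS1). The letters GGGCGG, a GC box, occurred on one strand or the other in each of the 5. Over the 287 AS promoters of 300 bases the median GC content was 65.7%, close to 66.7% for 306 promoters of sense partners and above 58.3% for all 27305 promoters in the table. The ratio of observed to expected CpG had a median of 0.775 in AS promoters, 0.834 in promoters of sense partners and 0.577 in all promoters. GGGCGG was present, on either strand, in 58.9% of AS promoters and in 75.3% of the 85 that belonged to head-to-head genes. It was present in 64.4% of promoters of sense partners and in 44.5% of all promoters. TATAAA, the TATA box, was present in 5.92% of AS promoters, 6.54% of those of sense partners and 12.0% of all. In the same order, CCAAT was present in 31.0%, 33.0% and 35.7%, CCGGAA in 22.7%, 23.9% and 17.6%, and CACGTG in 10.1%, 8.17% and 7.41%. In these features the AS promoters lay nearer to those of their partners than to all promoters, except for CACGTG and CCAAT. These are matches of letters in fixed windows and say nothing of which factor bound there.

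Libraries held between 38218108 and 57640167 counted reads. WDR5 had 52.5, 48.5 and 51.3 CPM in shLuc and 23.4, 24.3 and 20.7 in shWDR5, where CPM is a read count scaled to the size of its library with TMM factors. It fell by 1.15 ± 0.07 (SE) on the log2 scale, with an adjusted p of 8.67e-07 (edgeR quasi-likelihood test, Benjamini-Hochberg adjustment over all 16117 genes tested, used throughout). A gene was called when its adjusted p was under 0.05. The 7 epithelial markers summed to between 4354 and 4535 CPM in shLuc and between 3929 and 4209 in shWDR5, and the 6 basal markers to between 5510 and 5695 and between 8108 and 8663. Single markers went both ways. CDH1 (log2 -1.03) and EPCAM (-0.33) fell while KRT19 (1.83) and GRHL2 (0.31) rose, and KRT8, KRT18 and ESRP1 were not called. KRT5 (0.91), KRT14 (1.29), KRT17 (0.94) and TP63 (0.42) rose, DSG3 (-0.41) fell and ITGA6 was not called. Of 9 markers of other cells, 6 stayed under 1 CPM in every library, with CD3E at 0, and the list summed to between 87.1 and 89.9 CPM in shLuc and between 48.0 and 48.6 in shWDR5. That sum was mainly MBP (mean 59.2 CPM in shLuc and 27.9 in shWDR5), COL1A1 (22.1 and 15.6) and PECAM1 (6.50 and 3.97), each called lower. The part of these shifts in the results was not tested. In these bulk samples, fewer cells of a type and less RNA per cell cannot be told apart. Replicate 1 of each group stood farther from its other two replicates than those did from each other (chi-square per gene of 14.2 to 18.2 against 7.11 and 7.59).

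AS genes were weakly expressed. Their mean count had a median of 72.5, between 12.8 and 20224, compared with 775 for all genes tested and 1500 for sense partners, and 142 of the 381 averaged under 50 counts. Per length of exon, the shLuc level had a median of 0.738 RPKM, and 266 AS genes passed 0.5 RPKM in either group. The median ratio of AS to sense level per length was 0.122 in shLuc over 371 pairs, and 68 AS genes lay above their partner. Together, AS genes took 0.183% to 0.188% of all counts in shLuc and 0.196% to 0.197% in shWDR5.

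A single gene, LRRC75A-AS1, a host of small nucleolar RNAs, supplied more of these counts than any other AS gene. It had 403, 367 and 420 CPM in shLuc and 473, 476 and 469 in shWDR5, so that the groups did not overlap, and it rose by 0.25 ± 0.06 (adjusted p = 0.0038). Its level was 158 RPKM in shLuc. OIP5-AS1, the human counterpart of cyrano, followed with 35.1 RPKM, WAC-AS1 with 18.7, FGD5-AS1 with 14.3 and UGDH-AS1 with 14.2. These were the 5 AS genes with the highest mean counts, and all were called: LRRC75A-AS1 and UGDH-AS1 rose while OIP5-AS1, WAC-AS1 and FGD5-AS1 fell. FGD5-AS1 fell by 0.18 ± 0.06 (adjusted p = 0.0282) and lost the call without shLuc replicate 2 (adjusted p = 0.102) and in 3 of the other omissions of 1 library.

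After WDR5 silencing, 107 AS genes rose and 45 fell, while 229 did not pass the test. All 381 were tested. The called share was 39.9%, below the 56.5% of all genes tested that were called. The share that rose was 28.1% in AS genes and 26.6% in all genes, and the share that fell was 11.8% and 29.9%, so that 70.4% of the AS calls were higher in shWDR5. These shares are descriptions and no test compared them. The median log2 fold change was 0.12 in AS genes, 0.03 in sense partners and -0.01 in all genes tested, and the middle 80% of AS genes ran from -0.45 to 0.72. Adding the study's own limit of an absolute log2 fold change of 0.6 left 79 AS genes, 55 higher and 24 lower (14.4% and 6.30%), beside 10.9% and 12.0% of all genes. The study also required expression above 0.5 RPKM, which was not applied to these counts. Groups did not overlap in CPM for 183 of the 381, and for 62.3% of all genes tested.

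**Figure D1:**
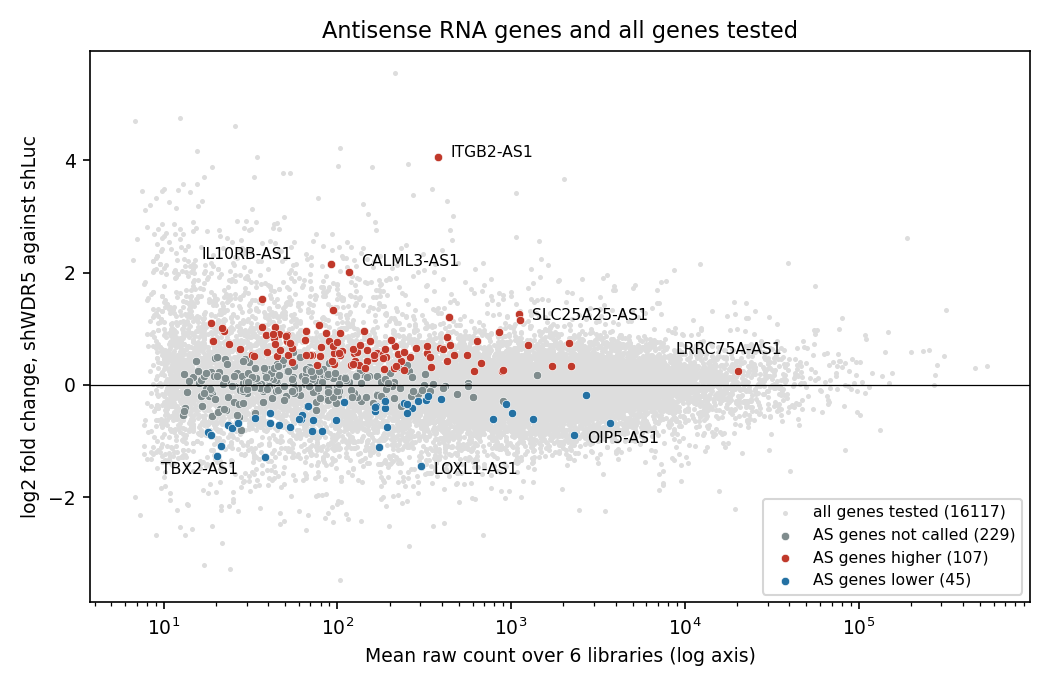
Log2 fold change of shWDR5 against shLuc (vertical axis) by mean raw count over the 6 libraries (horizontal log axis) for the 16117 genes tested (light grey) and the 381 AS genes (dark grey not called, red higher, blue lower). The 107 red points outnumber the 45 blue ones, ITGB2-AS1 stands highest at 4.06, and few AS genes reach counts above 1000.

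More AS genes were called at higher counts, where errors were smaller. The SE of the log2 fold change had a median of 0.16 in AS genes and 0.087 in all genes. Among the 142 AS genes with mean counts of 10 to 50, 19 rose and 12 fell (13.4% and 8.45%), beside 21.0% and 11.0% of all genes in that range. Between 50 and 200 counts, 52 of 161 rose and 17 fell (32.3% and 10.6%), beside 26.7% and 24.7% of all genes. From 200 counts upward, 36 of 78 rose and 16 fell (46.2% and 20.5%), beside 27.9% and 35.8%. The median log2 fold change of the AS genes in these 3 ranges was 0.05, 0.16 and 0.23, while that of all genes was 0.13, 0.03 and -0.04. Higher calls outnumbered lower calls in AS genes of all 3 ranges.

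Long intergenic RNA genes (LINC) and intronic transcripts were read from the same fit, by their symbols. Of 290 tested genes named LINC and a number, 88 rose (30.3%) and 24 fell (8.28%), with a median log2 fold change of 0.22. Of 18 intronic (-IT) and overlapping (-OT) transcripts tested, 2 rose and 2 fell. All libraries were made from poly-A selected RNA, and transcripts without a poly-A tail were outside the measurement.

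The largest increase was that of ITGB2-AS1 (chr21:46340950-46349595 in hg19, plus strand), which overlaps the 5′ end of ITGB2, the gene for the beta-2 integrin subunit of leukocytes. ITGB2-AS1 had 0.728, 0.928 and 1.02 CPM in shLuc and 15.4, 13.8 and 14.9 in shWDR5. Every shWDR5 library lay far above every shLuc library, and the gene rose 16.6-fold (log2 4.06 ± 0.12, adjusted p = 2.86e-08). ITGB2 had 3.84, 4.20 and 3.15 CPM against 43.8, 36.4 and 39.6, and rose 10.7-fold (log2 3.42 ± 0.11, adjusted p = 3.07e-08). Exons of other genes covered 9.85% of the exon bases of ITGB2-AS1. The ratio of AS to sense counts was higher by 0.62 on the log2 scale in shWDR5, with no overlap of groups (exact two-sided permutation p = 0.1, the smallest that 3 against 3 libraries allow).

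CALML3-AS1 and PAX8-AS1 also rose with their partners. CALML3 encodes a calmodulin-like protein of epithelia. CALML3-AS1 had 1.01, 0.954 and 0.917 CPM in shLuc and 4.01, 3.11 and 4.65 in shWDR5, a rise of 4.04-fold (log2 2.01 ± 0.18, adjusted p = 6.4e-06). CALML3 itself rested on 4 to 5 raw counts in shLuc and 15 to 30 in shWDR5 (log2 2.20 ± 0.46, adjusted p = 0.00197). PAX8-AS1, which lies inside PAX8, the gene of a transcription factor of thyroid and kidney, had 5.89, 5.21 and 5.80 CPM against 14.5, 11.8 and 12.9. PAX8-AS1 rose by 1.21 and PAX8 by 1.18 on the log2 scale, and their ratio overlapped between groups. CTBP1-AS2, which starts 320 bases from the start of the corepressor gene CTBP1 and shares no exon with any gene, rose by 0.85 while CTBP1 rose by 0.91.

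Other AS genes rose while their partner did not pass the test. RFX3-AS1, whose start lies 142085 bases from that of the ciliary transcription factor gene RFX3, had 0.364, 0.464 and 0.372 CPM in shLuc and 1.21, 1.02 and 1.26 in shWDR5 (log2 1.53 ± 0.20), with RFX3 at 0.18 ± 0.13. MMP24-AS1 had 14.3, 14.5 and 12.3 CPM against 35.0, 30.3 and 33.6 (log2 1.26 ± 0.09). MMP24, the gene of a membrane metalloproteinase, had a log2 fold change of 0.18 ± 0.20, which turned to -0.04 without shWDR5 replicate 1. NOP14-AS1 had 12.2, 12.4 and 12.3 CPM against 25.7, 22.4 and 23.4 (log2 0.95 ± 0.07), and NOP14, a ribosome assembly gene, 0.07 ± 0.05. SH3PXD2A-AS1, inside the gene of the invadopodia scaffold TKS5, rose from 33.5, 33.6 and 35.0 to 60.1, 55.1 and 57.1 CPM (log2 0.75 ± 0.06), with SH3PXD2A at -0.12 ± 0.05. SH3PXD2A passed the test without shWDR5 replicate 1 (-0.14, adjusted p = 0.047). Rises of both genes were called for CCDC183-AS1 (1.33) and CCDC183 (0.65), GAS6-AS1 (1.06) and GAS6 (0.39), VPS9D1-AS1 (0.77) and VPS9D1 (0.45), and C1RL-AS1 (0.71) and C1RL (0.48), with exon sharing of 3.26% to 23.7% of the AS gene.

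The decrease with the lowest adjusted p was that of LOXL1-AS1 (chr15:74209809-74220589 in hg19, minus strand), which overlaps the 5′ end of LOXL1, a lysyl oxidase gene of elastic fibres. LOXL1-AS1 had 9.95, 9.98 and 9.94 CPM in shLuc and 3.76, 3.69 and 3.55 in shWDR5. Both groups were tight and far apart, and the gene fell 2.71-fold (log2 -1.44 ± 0.08, adjusted p = 3.43e-07). LOXL1 also fell, with 5.26, 4.90 and 5.35 CPM against 4.12, 3.73 and 3.48 (log2 -0.45 ± 0.10). TBX2-AS1 fell together with TBX2, a T-box repressor gene (log2 -1.29 ± 0.25 and -1.06 ± 0.13). FOXD3-AS1 fell by 1.27 ± 0.24 from 0.708, 0.645 and 0.545 CPM to 0.237, 0.264 and 0.287, and its partner FOXD3 had too few counts to be tested.

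Several abundant AS genes fell while the partner did not pass the test. OIP5-AS1 had 62.0, 67.5 and 69.7 CPM in shLuc and 33.6, 38.2 and 35.7 in shWDR5 (log2 -0.89 ± 0.07, adjusted p = 3.1e-06). OIP5, which encodes a centromere protein and lies 9670 bases from it, tail to tail, had 0.05 ± 0.08. WAC-AS1, which starts 234 bases from WAC on the opposite strand, had 97.2, 103 and 102 CPM against 59.9, 64.0 and 64.4 (log2 -0.68 ± 0.06, adjusted p = 4.4e-06), while WAC, an adaptor of histone H2B ubiquitination, had 0.02 ± 0.06. FLVCR1-AS1, divergent from the heme exporter gene FLVCR1, had 5.56, 5.34 and 4.78 CPM against 2.18, 2.66 and 2.40 (log2 -1.11 ± 0.11), and FLVCR1 -0.15 ± 0.09. The AS to sense ratio of these 3 pairs was lower in each shWDR5 library than in each shLuc library (exact permutation p = 0.1, the smallest possible).

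The 15 decreases with the lowest adjusted p and a log2 fold change of at least 0.6 in size also took in 9 further AS genes. DHRS4-AS1 fell by 0.61, THAP9-AS1 by 0.61, ZNF436-AS1 by 0.63, DICER1-AS1 by 0.72 and ATP6V1B1-AS1 by 0.76 on the log2 scale, and their partners did not pass the test. The DICER1-AS1 log2 fold change was -0.62 without replicate 1 of both groups, and the call was lost (adjusted p = 0.0536). THAP9 passed it without shLuc replicate 1 (-0.41, adjusted p = 0.027) and ZNF436 without shWDR5 replicate 3 (-0.22, adjusted p = 0.047). PSMD6-AS2 (-0.62), TMEM51-AS1 (-0.82) and KTN1-AS1 (-0.82) fell with their partners. The call of PSMD6 was lost without shLuc replicate 1 (adjusted p = 0.177) and under 4 of the other 5 omissions of 1 library. RPARP-AS1 fell by 0.76 and had no partner row in the table. In all 30 AS genes that ranked highest by adjusted p with an absolute log2 fold change of at least 0.6, 15 in each direction, the CPM of the groups did not overlap. The ranking used the same libraries, so this nearly follows from it and adds no support.

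**Figure D2:**
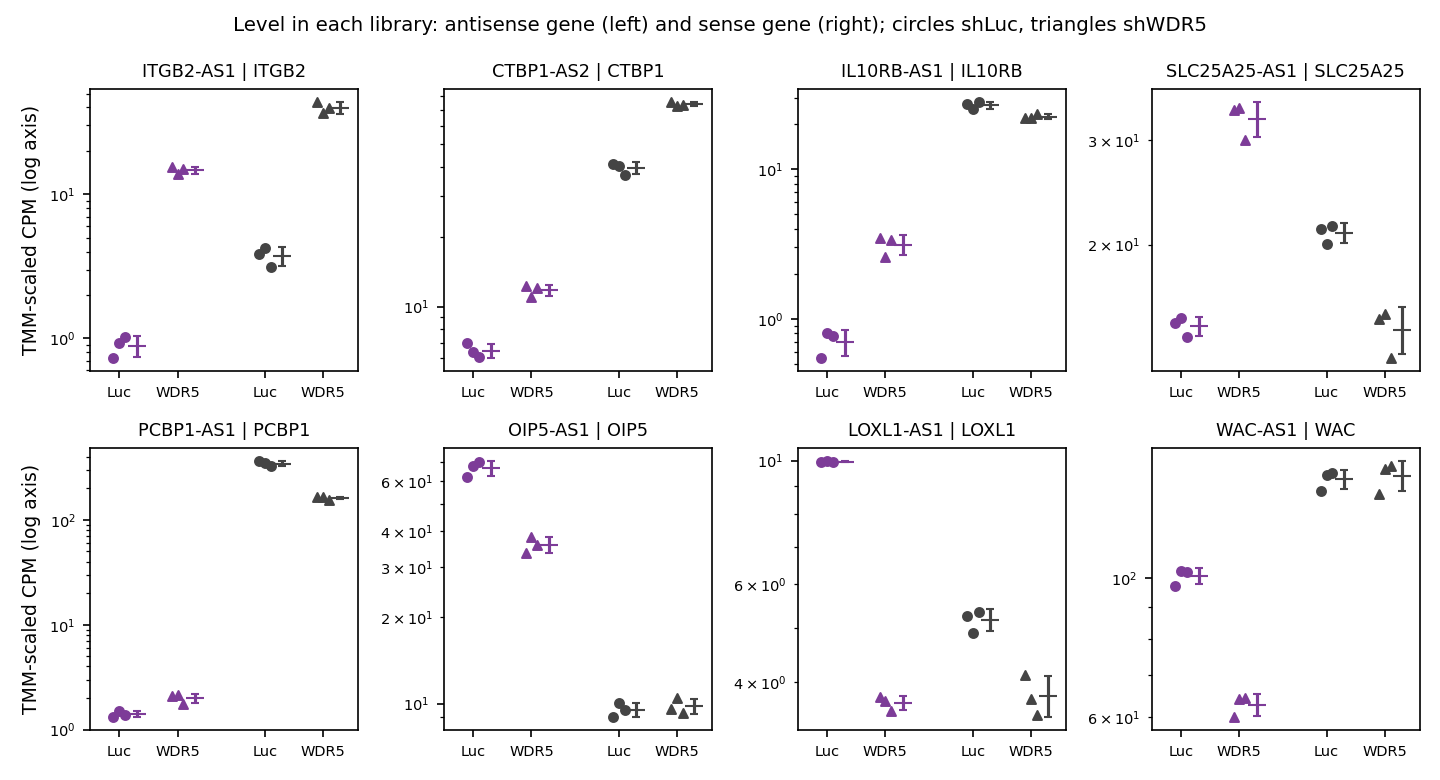
TMM-scaled CPM (log axis, a scale of its own in each panel) of 8 AS genes (purple, left) and their sense genes (black, right) in each of the 3 shLuc libraries (circles) and 3 shWDR5 libraries (triangles), with mean and SD beside them. ITGB2 and CTBP1 rise with their AS gene, IL10RB, SLC25A25 and PCBP1 fall while theirs rises, LOXL1 falls with its AS gene, and OIP5 and WAC overlap between groups. CPM is not per length, so that the height of an AS gene is not to be read against that of its partner.

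The sense partners were read from the same fit. The table held a partner for 376 AS genes, 370 different genes in all, of which 351 had enough counts to be tested: 107 rose, 94 fell and 150 did not pass, a share called of 57.3%, near the 56.5% of all genes. In the 356 pairs with both genes tested, both were called in the same direction in 59 (16.6%), 45 higher and 14 lower. Both were called in opposite directions in 27 (7.58%), of which 21 had the AS gene higher and 6 the sense gene higher. The same counts over 7983 pairs of neighbouring genes on opposite strands were 20% and 13.1%. Those neighbours were taken at any distance and were not matched to the AS pairs in counts. AS genes had lower counts and were called less often than all genes, so these shares are not on an equal footing. In 58 pairs the AS gene alone was called, in 119 the sense gene alone and in 93 neither.

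The ratio of AS to sense counts within a library does not depend on library size. It lay higher in every shWDR5 than in every shLuc library in 107 pairs and lower in 63. Together these were 47.8% of 356, beside 62.8% of neighbouring pairs, which were not matched in counts. Each such pair had an exact two-sided permutation p of 0.1, the smallest that this design allows. All 27 pairs called in opposite directions were among these 170. Their calls came from the same counts as the ratio, so this nearly follows from how they were picked and is no second test.

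In the pairs called in opposite directions, SLC25A25-AS1 had the lowest adjusted p of the AS genes. It had 14.7, 15.1 and 14.0 CPM in shLuc and 33.7, 34.0 and 30.0 in shWDR5 (log2 1.16 ± 0.07, adjusted p = 8.44e-07). SLC25A25, the gene of a mitochondrial ATP-magnesium/phosphate carrier whose end lies 1912 bases from that of SLC25A25-AS1, had 21.2, 20.1 and 21.5 CPM against 15, 15.3 and 12.9 (log2 -0.54 ± 0.08, adjusted p = 0.000232). THUMPD3-AS1 lies tail to tail with THUMPD3, the gene of a tRNA methyltransferase, and rose by 0.71 ± 0.08 while THUMPD3 fell by 0.50 ± 0.06. No exon bases of either AS gene were shared with another gene.

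Of the divergent pairs whose sequence is shown, IL10RB-AS1 moved farthest. It had 0.546, 0.799 and 0.768 CPM in shLuc and 3.45, 2.59 and 3.37 in shWDR5, on 27 to 31 and 147 to 160 raw counts (log2 2.16 ± 0.19, adjusted p = 5.73e-06). IL10RB, the shared subunit of the interleukin-10 receptor family, had 27.2, 25.3 and 28.0 CPM against 22.1, 22.0 and 23.4 (log2 -0.26 ± 0.07, adjusted p = 0.00817). PCBP1-AS1 had 1.32, 1.50 and 1.39 CPM against 2.07, 2.15 and 1.76 (log2 0.52 ± 0.14, adjusted p = 0.00777). PCBP1, an abundant poly(C)-binding protein gene without introns, had 362, 349 and 324 CPM against 164, 164 and 156 (log2 -1.10 ± 0.06, adjusted p = 2.75e-07). NCBP2-AS2, now named NCBP2AS2, rose by 0.39 ± 0.07 while NCBP2, a subunit of the nuclear cap-binding complex, fell by 0.32 ± 0.07. UGDH-AS1 starts 241 bases from UGDH, the gene of UDP-glucose dehydrogenase. UGDH-AS1 had 37.3, 44.2 and 45.2 CPM against 49.6, 54.8 and 55.3 (log2 0.34 ± 0.08), and UGDH 31.7, 33.9 and 30.5 against 18.1, 21.4 and 20.5 (log2 -0.68 ± 0.08).

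In the reverse direction, TP73-AS1 had 23.5, 23.7 and 20.8 CPM in shLuc and 19.1, 17.7 and 17.2 in shWDR5 (log2 -0.33 ± 0.08, adjusted p = 0.00363). TP73, of the p53 family, had 1.05, 1.01 and 0.966 CPM against 2.40, 2.13 and 2.09 (log2 1.12 ± 0.13, adjusted p = 5.3e-05). EP300-AS1 fell by 0.53 ± 0.14 while EP300, a histone acetyltransferase gene, rose by 0.43 ± 0.06. With DESeq2 the EP300-AS1 log2 fold change was -0.52 and the call was lost (adjusted p = 0.0701).

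Leaving out each library in turn kept 14 of the 27 opposite pairs under all 6 omissions. Beside SLC25A25-AS1, THUMPD3-AS1, IL10RB-AS1, PCBP1-AS1, NCBP2-AS2, UGDH-AS1, TP73-AS1 and EP300-AS1 these were SH3BP5-AS1 (0.65, partner -1.11), PKN2-AS1 (1.11, partner -0.55), EPHA1-AS1 (0.92, partner -0.59), EPB41L4A-AS1 (0.53, partner -0.30), TSC22D1-AS1 (0.72, partner -0.25) and MID1IP1-AS1 (0.75, partner -0.21). The other 13 lost the call of at least one gene in at least one omission. Through the AS gene these were TMPO-AS1 (adjusted p up to 0.0902, without shLuc replicate 2), PSMA3-AS1 (0.0695, without shWDR5 replicate 2), PITRM1-AS1 (0.0769, without shLuc replicate 2), PITPNA-AS1 (0.124, without shWDR5 replicate 1), SLC2A1-AS1 (0.144, without shLuc replicate 1), WWTR1-AS1 (0.132, without shWDR5 replicate 3) and ACVR2B-AS1 (0.0501, without shLuc replicate 3). Through the sense gene they were DARS (adjusted p up to 0.109, without shWDR5 replicate 3), NDUFA6 (0.0975, without shLuc replicate 3), STARD7 (0.0634, without shLuc replicate 3) and LPP (0.0871, without shLuc replicate 2), and both genes were affected for NDUFV2-AS1 (0.183, without shWDR5 replicate 1) and ITGA9-AS1 (0.103, without shLuc replicate 2). The pairs of DARS-AS1, NDUFV2-AS1 and ITGA9-AS1 were kept in 0 of the 6 omissions. Those of SLC2A1-AS1, PITPNA-AS1, NDUFA6-AS1 and WWTR1-AS1 were kept in 1, and the rest of the 13 in 2 (TMPO-AS1) to 5 (ACVR2B-AS1). The total of opposite pairs was between 18 and 23 in the fits without 1 library.

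Position was read from the exon coordinates of the table (hg19). The partner lay head to head without overlap for 113 AS genes, with a median of 124 bases between starts and 97 within 500 bases. The 5′ ends overlapped for 112 and the 3′ ends for 73, the AS gene lay inside the partner for 54 and contained it for 13, and 10 lay tail to tail. HNRNPU-AS1 lay on the strand of its partner, and 5 AS genes had no partner row. The AS gene rose in 22.1% and fell in 13.3% of head-to-head genes, in 33.0% and 12.5% of those with overlapping 5′ ends, in 31.5% and 8.22% of those with overlapping 3′ ends and in 29.6% and 7.41% of those inside the partner. The counts of higher calls exceeded those of lower calls in each of these 4 classes. Of the 10 tail-to-tail genes 4 rose and 3 fell.

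**Figure D3:**
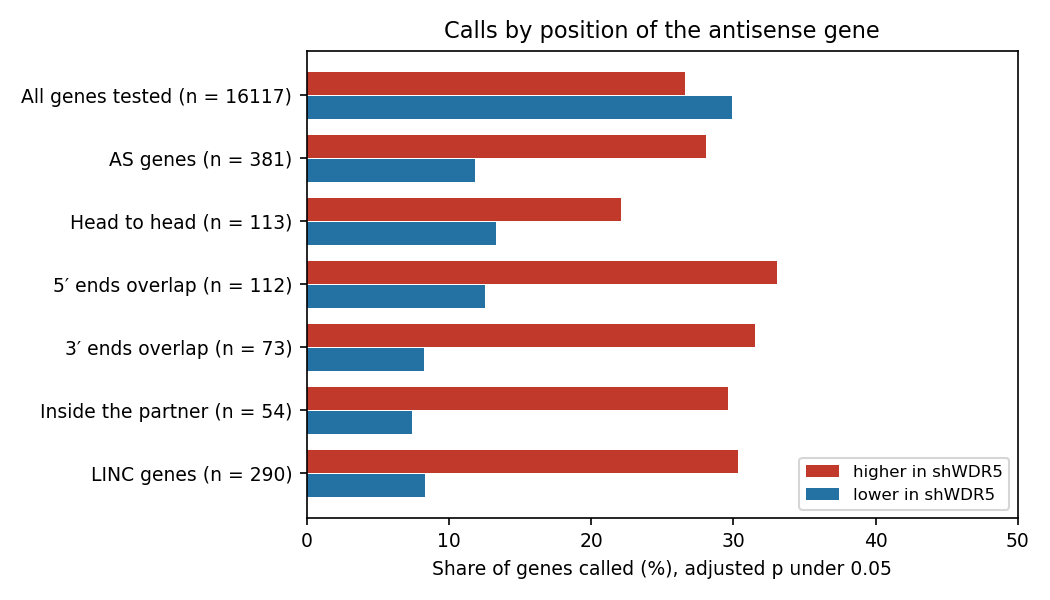
Share of genes called higher (red) and lower (blue) in shWDR5, in percent, for all 16117 genes tested, the 381 AS genes, the 4 position classes with more than 50 AS genes and 290 LINC genes. The blue bar is longer than the red one for all genes (29.9% against 26.6%) and shorter in every other row. The order for all genes depended on scaling: upper-quartile factors called 4663 higher and 4390 lower. Bars are shares of genes and have no error bars.

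Exon sharing bears on how far an AS gene was measured apart from its neighbour. Of 77 genes whose exons were covered at 99% or more by genes of the opposite strand, 76 had no count and 1 had a single count, so reads on bases shared by opposite genes had been left out of the table and strand had not been used. Outside shared bases, a read from the opposite strand, such as an unspliced or extended transcript, would be counted for the annotated gene, and its part was not tested. In all, 189 AS genes shared no exon bases with any gene and 7 shared at least 50%. Over the 176 tested pairs without shared bases, the log2 fold changes of AS and sense gene had a Spearman correlation of 0.043 (Pearson 0.061), and over the 180 with shared bases 0.39 (Pearson 0.54). ITGB2-AS1 was among the 180. Sharing also differed by position, with a median of 0% of exon bases in head-to-head genes and 7.01% where 5′ ends overlapped. Pearson over all 356 pairs was 0.37, and 0.27 without ITGB2-AS1. It was not taken for the 180 without that gene. The points share libraries, and 12 pairs share a partner, so no test was made. Both genes were called in the same direction in 23 pairs without shared bases and in 36 with them, and in opposite directions in 15 and 12.

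**Figure D4:**
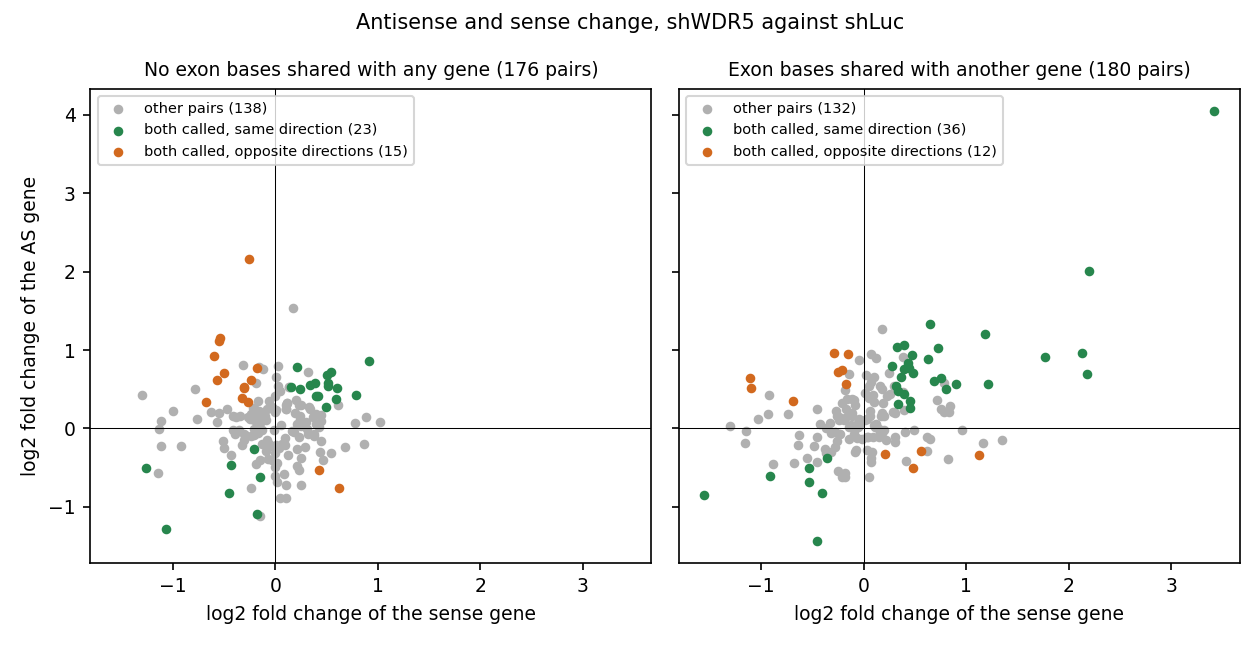
Log2 fold change (shWDR5 against shLuc) of the AS gene (vertical axis) by that of its sense gene (horizontal axis) for 176 pairs in which the AS gene shares no exon bases with any gene (left) and 180 in which it does (right). Green points are called in the same direction (23 and 36), orange points in opposite directions (15 and 12). ITGB2-AS1 is the point at the upper right of the right panel.

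VIM and ZEB1, genes of epithelial to mesenchymal transition, have AS genes that were chosen here after their values were seen. VIM-AS1 had 2.73, 2.71 and 3.34 CPM in shLuc and 4.23, 4.03 and 4.76 in shWDR5 (log2 0.57 ± 0.12, adjusted p = 0.00211), and VIM, the gene of the intermediate filament vimentin, rose by 1.21 ± 0.07. Exons of other genes covered 32.2% of VIM-AS1. ZEB1-AS1, which starts 77 bases from the transcription factor gene ZEB1, had 0.830, 0.954 and 1.11 CPM against 0.691, 0.774 and 1.59, and the groups overlapped (log2 0.06 ± 0.30, adjusted p = 0.874). ZEB1 rose by 0.78 ± 0.17.

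The minimum of 10 counts in each library left out 590 of the 971 genes, of which 162 had no count at all. TMEM5-AS1 (10 to 18 counts) and JMJD1C-AS1 (10 to 19) lay just inside it. ATP2A1-AS1 had 26, 10 and 9 counts in shLuc and 32, 40 and 22 in shWDR5, TOB1-AS1 9, 17 and 11 against 30, 24 and 41, and both lay just outside. The minimum was met in all shLuc libraries only by 18 genes and in all shWDR5 libraries only by 49. Genes that were low in one group only were therefore left out.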

How the data were processed

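RNA from MCF10DCIS cells was poly-A selected (TruSeq RNA kit). The authors aligned reads to hg19 with TopHat2 2.1.0, counted them per gene with featureCounts (version not given in the sources used here) and deposited raw counts with exon coordinates, the unit analysed here. The kit's protocol does not mark strand. A second deposited table holds the authors' own edgeR 3.2.2 comparison and was not used. Here, the 3 shWDR5 and 3 shLuc libraries (depths in the report, which limit low counts) were compared with edgeR 4.0.16 (R 4.3.3), TMM factors, filterByExpr and the quasi-likelihood test. Calls had a Benjamini-Hochberg adjusted p under 0.05 over all genes tested. The SE is the log2 fold change divided by the square root of F. CPM was TMM-scaled, and RPKM was CPM per kilobase of exon. The AS to sense ratio added 0.5 to each count. The fit was tested on simulated data. DESeq2 1.42.0, other scaling, filters, member rules and omitted libraries were alternatives. Genes named were up to 15 per direction by adjusted p with an absolute log2 fold change of at least 0.6, all opposite pairs, the 5 highest by count, those at the count minimum and WDR5. HNRNPU-AS1, VIM-AS1, ZEB1-AS1 and the genes below the minimum named at the end were chosen after their values were seen. Members and lists were chosen with earlier results of these data known.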

Additional observations from a re-analysis of the deposited data

How the results depend on the processing

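Counts of called AS genes stayed within 1.5 times the reported 152 under RLE factors (152), upper-quartile factors (149), no filter on low counts (144) and DESeq2 (109), but DESeq2 called 26 lower against 45. Among all genes, TMM factors gave 4291 higher and 4821 lower calls, and RLE factors 4497 and 4618. With upper-quartile factors the order turned, to 4663 higher and 4390 lower, while AS genes had 112 and 37. Also requiring an absolute log2 fold change of 0.6 left 79 AS genes (55 higher, 24 lower), 64 partners (35 and 29) and 3690 of all genes (1751 and 1939). Leaving out 1 library gave 120 to 131 AS genes (86 to 97 higher, 33 to 37 lower), 176 to 205 partners (97 to 112 higher, 79 to 93 lower), 8120 to 8847 genes in all (3803 to 4263 higher, 4271 to 4584 lower) and -1.20 to -1.09 for WDR5. The AS median ran from 0.069 (without shWDR5 replicate 1) to 0.149 and the partners' from 0.013 to 0.039. The latter was 0.044 with RLE and 0.064 with upper-quartile factors. The cause of these moves was not tested. The MMP24 log2 fold change ran from -0.04 (without shWDR5 replicate 1) to 0.33 (without shWDR5 replicate 2) and was -0.0946 without replicate 1 of both groups, an omission chosen after seeing the data that gave 125 called AS genes. A minimum of 10 on the mean gave 179 calls among 459 AS genes tested, a minimum of 20 in every library 135 of 308, and without genes sharing at least 50% of their exon bases there were 150 of 374. The higher share of AS calls was 66.5% to 76.2% over all settings. The numbers were not taken as pairs in the main fit, because no label says that same-numbered libraries belong together. Deviations of same-numbered libraries had correlations of 0.37, 0.036 and 0.116, all positive, which do not settle whether they were paired. With a replicate block, 164 AS genes (109 higher, 55 lower), 243 partners (125 and 118) and 10412 genes were called. Over these settings, 12 of the 58 named AS genes lost the call at least once. TMEM5-AS1, not called in any of them, turned from 0.20 to -0.0028 without shWDR5 replicate 1, and no other named AS gene changed sign. Depth limits genes under 50 counts, where the median SE was 0.24.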
